A study of Mus musculus with 12 samples.

Results

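The Myc family and its partners were followed by RNA sequencing through entry of mouse embryonic stem (ES) cells into the paused, diapause-like state that an mTOR inhibitor brings about. The 10 genes Myc, Mycn, Mycl, Max, Mxd1, Mxd3, Mxd4, Mnt, Mxi1 and Mlx were taken by gene symbol from the 54446 genes quantified in each library. Each symbol matched 1 gene, and all 10 were among the 15727 genes tested, which averaged 1 TPM or more (a transcript level that is corrected for length and sums to 1000000 in each library).

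The 12 libraries fall into 6 groups of 2 replicates. KH cells are described in the methods of the study as a wild-type line named KH2. In DNMT3ABKO cells, Dnmt3a and Dnmt3b, the enzymes of de novo DNA methylation, are knocked out. The labels read E14 KH and E14 DNMT3ABKO. Both lines were collected at 0 h and after 72 and 144 h in INK128, which blocks the mTOR kinase (mTORi). The comparison asks whether cells without de novo methylation enter the paused state as wild-type cells do. Each genotype is 1 line, and no untreated 72 h or 144 h culture was analysed here, so that genotype cannot be told apart from line, nor mTORi from time in culture. Per the methods, KH2 and DNMT3ABKO cells grew on mitomycin-treated feeders and lines of E14 background grew without any. The labels of both lines read E14, so they do not settle whether feeders were present. At 0 h, 16 fibroblast markers summed to 2465 to 2711 TPM in KH and 2666 to 2898 TPM in DNMT3ABKO cells. RNA was taken from sorted, viable single cells.

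MYC proteins are transcription factors of growth and proliferation. MYC, MYCN and MYCL each bind DNA only as a dimer with MAX, at the E-box CACGTG, and recruit coactivators there. The MXD proteins, MXI1 and MNT also pair with MAX, occupy the same sites and recruit SIN3-histone deacetylase complexes, which opposes MYC. MLX is a MAX-like protein that pairs with some MXD proteins and with MNT, and with MLXIP and MLXIPL, which respond to glucose metabolites. In ES cells MYC and MYCN act redundantly in proliferation, and loss of both brings a diapause-like arrest.

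The E-box is shown where it lies at the promoters of the members themselves, since this is the sequence that their dimers bind. RefSeq promoter windows (GRCm38.p6, the assembly behind mm10) reach from 250 bases before to 50 bases after a start, and 9 of the 10 members matched by symbol. Myc had no window. The promoters of 4 genes held CACGTG, a palindrome that reads the same on both strands, which was 36.4% of the 11 windows of these genes, where 7.15% of all 32851 windows held it. Below, the E-box is in capitals with 12 bases on either side, each written 5′ to 3′ along the strand of its gene.

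Max, chr12:76962234-76962263, minus strand: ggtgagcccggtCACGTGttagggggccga
Mnt, chr11:74830789-74830818, plus strand: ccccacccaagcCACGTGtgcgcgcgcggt
Mlx, chr11:101087238-101087267, plus strand: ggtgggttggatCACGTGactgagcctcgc
Mxd4, chr5:34187912-34187941, minus strand: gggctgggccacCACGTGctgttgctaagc

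With the start base counted as 0, the E-box spanned bases -3 to 2 in Max, -40 to -35 in Mlx, -123 to -118 in Mnt and -219 to -214 in Mxd4. No CACGTG was found in the windows of Mycn, Mycl, Mxd1 and Mxd3 or in any of the 3 windows of Mxi1. The windows of the members held 14 to 49 CpG, the dinucleotide that DNA methyltransferases modify, against a median of 7 over all windows. CACGTG itself holds a CpG, and its share was not set against windows of like CpG content. The Mycn window held the fewest. Its first 172 bases, which end before every annotated exon (chr12:12941915-12942086, minus strand), are given because Mycn was among the members whose responses differed between the lines, with the 7 CpG in capitals.

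Mycn: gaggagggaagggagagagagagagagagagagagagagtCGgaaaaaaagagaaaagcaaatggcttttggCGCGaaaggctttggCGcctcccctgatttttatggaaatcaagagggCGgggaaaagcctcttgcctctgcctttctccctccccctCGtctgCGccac

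These sequences describe the reference genome. Binding at the promoters and their methylation were not analysed here.

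Across the tested genes the 2 replicates correlated at r = 0.994 to 0.996 in 5 groups and at r = 0.985 in DNMT3ABKO cells at 0 h, where the SD between replicates, pooled over genes, was 0.27 on the log2 scale against 0.13 to 0.18 in the other groups. The targeted genes lay at 54.7 to 144 TPM (Dnmt3a) and 142 to 258 TPM (Dnmt3b) in KH libraries and at 7.35 to 21.9 TPM and 12.7 to 27.5 TPM in DNMT3ABKO libraries. The 9 ES cell markers, among them Pou5f1, Nanog and Sox2, were all detected. Their summed level was 4245 to 4524 TPM at 0 h and 6647 to 6750 TPM at 144 h in KH cells. It was 4292 to 4327 and 6710 to 6749 TPM in DNMT3ABKO cells. By the test used below, 8 of the 9 were higher at 144 h in KH cells, and 7 higher and 1 lower in DNMT3ABKO cells. Of all tested genes, 27.4% and 31.4% were called higher there, and 23.9% and 26.2% lower. Markers of other cells fell over the same time. The 16 fibroblast markers summed to 2465 to 2711, 1206 to 1236 and 547.5 to 637.9 TPM at 0, 72 and 144 h in KH cells and to 2666 to 2898, 974.5 to 1014 and 399.3 to 414.0 TPM in DNMT3ABKO cells. None of them was at 0 in all libraries at 144 h, and 2 of the 16, Lum and Fap, stayed under 1 TPM there. The 8 macrophage markers summed to 250.7 to 268.4 TPM at 0 h and to 20.8 to 21.0 TPM at 144 h in KH cells, and to 212.8 to 238.8 and 35.5 to 36.7 TPM in DNMT3ABKO cells, with Ptprc, Csf1r and Adgre1 under 1 TPM in every library at 144 h. TPM are shares of the transcripts in a library, so every rise or fall given here is relative to the other genes, and changes in the amount of RNA per cell cannot be read from them. Fewer cells of a type and less RNA per cell cannot be told apart. The part of the other cells in the results that follow was not tested.

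In KH cells, Mycn was the most abundant MYC gene in all 6 libraries, followed by Myc and, far below, Mycl. In DNMT3ABKO cells that order held at 0 and 144 h, while at 72 h Myc stood above Mycn. Over time, Myc rose in both lines to a peak at 72 h, Mycn and Mycl fell in DNMT3ABKO cells, and the antagonists Mnt, Mxd1 and Mxd3 rose in both. The plot of TPM by time shows each library.

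**Figure D1:**
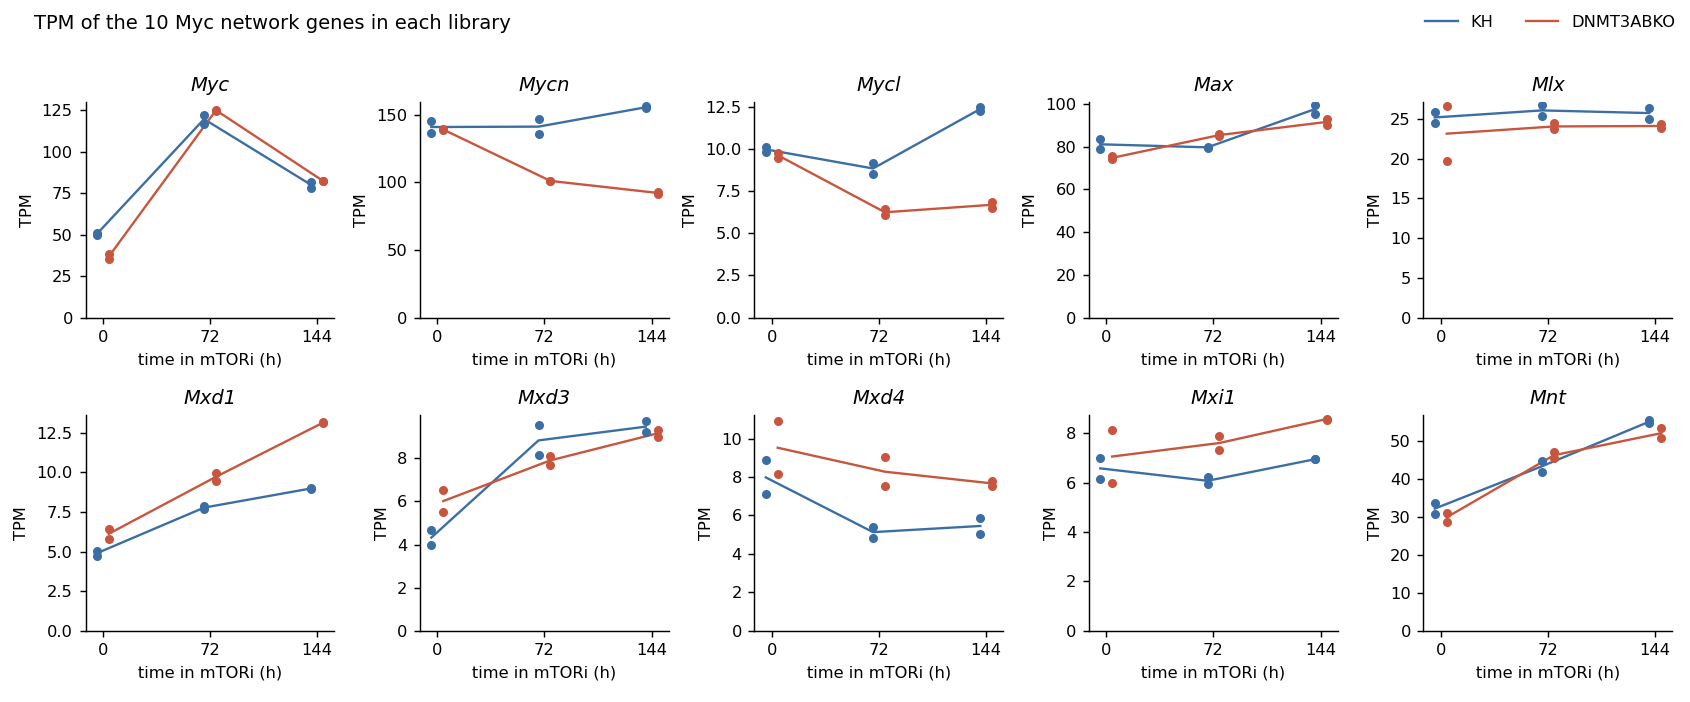
TPM (y axis, from 0) of the 10 Myc network genes against hours in mTORi (x axis), with each library as a point and lines through the means of 2 replicates, KH in blue and DNMT3ABKO in red. Myc peaks at 72 h in both lines, at 119.7 TPM in KH and 125.1 TPM in DNMT3ABKO, after 50.4 and 36.8 TPM at 0 h, while Mycn at 72 h stands at 141 TPM in KH and 101 TPM in DNMT3ABKO.

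Myc (ENSMUSG00000022346.15, mm10 chr15:61985391-61990374, plus strand, 4 exon blocks) stood at 49.9 and 51.0 TPM in KH cells at 0 h, then at 122 and 117 TPM at 72 h and at 81.8 and 78.3 TPM at 144 h. In DNMT3ABKO cells it stood at 38.2 and 35.4, at 124.7 and 125.5, and at 82.1 and 82.7 TPM. In each line both libraries at 72 h lay above both at 144 h, which lay above both at 0 h. The only wide gap between the lines was at 0 h, where DNMT3ABKO libraries were the lower ones.

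From 0 to 72 h, Myc increased 2.37-fold in KH cells, by 1.23 ± 0.06 on the log2(TPM + 1) scale (SE, n = 2 per group, adjusted p = 7.5e-07, limma with Benjamini-Hochberg adjustment, as for every adjusted p below). The increase in DNMT3ABKO cells was 3.40-fold (log2 difference 1.74 ± 0.06, adjusted p = 6.2e-08). At 144 h it remained above its level at 0 h, by 0.66 ± 0.06 in KH cells (adjusted p = 1.7e-05) and by 1.14 ± 0.06 in DNMT3ABKO cells (adjusted p = 1.9e-07). Between 72 and 144 h it fell by 0.58 ± 0.06 in KH cells (adjusted p = 1.5e-04) and by 0.60 ± 0.06 in DNMT3ABKO cells (adjusted p = 7.3e-05).

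The rise of Myc was thus larger in DNMT3ABKO cells, by 0.51 ± 0.09 at 72 h (adjusted p = 0.0091) and by 0.49 ± 0.09 at 144 h (adjusted p = 0.0070). At 0 h Myc was lower in DNMT3ABKO cells than in KH cells, with a log2 difference of -0.45 ± 0.06 (adjusted p = 0.0016). At 72 and 144 h the differences between the lines were 0.06 (95% interval -0.07 to 0.20) and 0.04 (-0.10 to 0.18). The call at 0 h was lost when only the groups of that comparison entered the model (adjusted p = 0.19), and in a fit of the 0 h libraries alone that paired same-numbered replicates of the 2 lines (0.056), which was chosen after seeing the data. The 72 h difference in response was lost without KH replicate 2 at 72 h (adjusted p = 0.055).

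Mycn (ENSMUSG00000037169.15, chr12:12936093-12941914, minus strand, 4 exon blocks) is the MYC gene most typical of ES cells and embryonic tissue. In KH cells its level was 136 and 145 TPM at 0 h, 147 and 136 TPM at 72 h, and 156 and 155 TPM at 144 h. In DNMT3ABKO cells it was 139 and 139 TPM, then 101 and 101 TPM, then 92.7 and 91.5 TPM. KH libraries at 0 and 72 h overlapped, whereas in DNMT3ABKO cells each time point lay below the one before it.

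In DNMT3ABKO cells, Mycn fell by 0.46 ± 0.06 at 72 h (adjusted p = 1.4e-04) and by 0.59 ± 0.06 at 144 h (adjusted p = 2.0e-05), to 0.663 times its level at 0 h. In KH cells the log2 differences were 0.00 (95% interval -0.13 to 0.14) at 72 h and 0.14 (0.01 to 0.28) at 144 h, with adjusted p = 0.98 and 0.073. The responses of the lines differed by -0.46 ± 0.09 at 72 h (adjusted p = 0.013) and by -0.73 ± 0.09 at 144 h (adjusted p = 3.9e-04). At 0 h the line difference was -0.02 (95% interval -0.15 to 0.12). DNMT3ABKO cells were lower by 0.48 ± 0.06 at 72 h and by 0.75 ± 0.06 at 144 h (adjusted p = 4.2e-04 and 1.1e-05). The 72 h difference in response was lost without KH replicate 1 at 72 h (adjusted p = 0.075), without either DNMT3ABKO library at 72 h (0.060 and 0.062) and with only the groups in the contrast (0.070).

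Mycl (ENSMUSG00000028654.13, chr4:122995652-123002485, plus strand, 5 exon blocks), the least abundant of the 3 MYC genes, stood in KH cells at 10.1 and 9.84, 9.19 and 8.51, and 12.3 and 12.5 TPM, in order of time. In DNMT3ABKO cells it stood at 9.78 and 9.50, 6.42 and 6.08, and 6.89 and 6.51 TPM. The lowest KH library, at 72 h, was above every DNMT3ABKO library of 72 and 144 h. In DNMT3ABKO cells Mycl fell by 0.55 ± 0.08 at 72 h (adjusted p = 2.6e-04) and by 0.47 ± 0.08 at 144 h (adjusted p = 6.6e-04). In KH cells the difference was -0.16 ± 0.08 at 72 h (adjusted p = 0.13), called with rescaling by median ratios (-0.26, adjusted p = 0.029), and Mycl rose by 0.28 ± 0.08 at 144 h (adjusted p = 0.013). That rise passed the threshold narrowly, and leaving out KH replicate 2 at 0 h, or replicate 1 or 2 at 144 h, gave adjusted p of 0.060, 0.054 and 0.067. The difference between the responses was -0.75 ± 0.11 at 144 h (adjusted p = 0.0025) and -0.40 ± 0.11 at 72 h, which did not pass (adjusted p = 0.082).

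Summed over the 3 genes, MYC transcripts went from 196 and 206 TPM at 0 h to 278 and 261 TPM at 72 h and 250 and 246 TPM at 144 h in KH cells. In DNMT3ABKO cells the sums were 187 and 183, 232 and 233, and 182 and 181 TPM, so that both libraries at 144 h were below both at 0 h. The make-up of the sum also differed. Myc was 25.1% of it in KH cells at 0 h, 44.4% at 72 h and 32.3% at 144 h (means of 2 libraries), and 19.8%, 53.9% and 45.5% in DNMT3ABKO cells. The ratio of Myc to Mycn was 0.358 ± 0.011, 0.849 ± 0.019 and 0.515 ± 0.013 (SD, n = 2) in KH cells. The DNMT3ABKO ratios were 0.265 ± 0.013, 1.24 ± 0.01 and 0.895 ± 0.013. These sums and ratios are descriptions and were given no test.

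**Figure D2:**
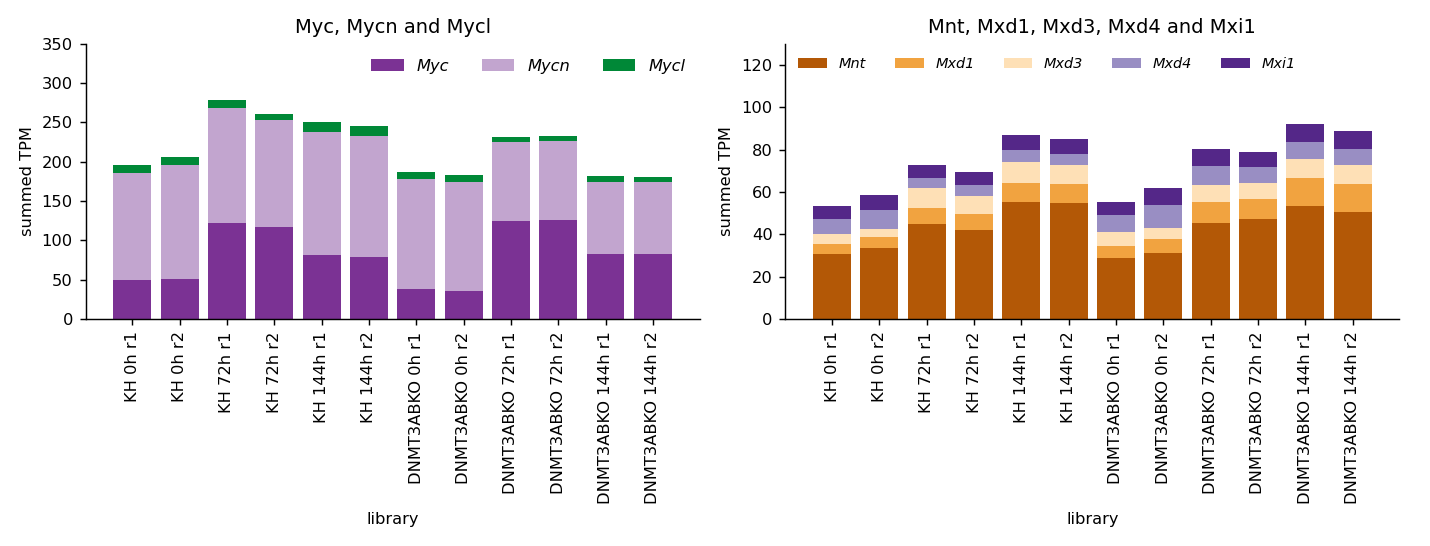
Stacked bars of TPM (y axis, from 0) in each library (x axis), for Myc, Mycn and Mycl on the left and for the MAX-binding antagonists Mnt, Mxd1, Mxd3, Mxd4 and Mxi1 on the right. The MYC bars are tallest at 72 h in both lines, at 261 to 278 TPM in KH cells and 232 to 233 TPM in DNMT3ABKO cells, whereas the antagonist bars are tallest at 144 h, at 84.9 to 86.9 and 89.0 to 92.1 TPM.

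Max (ENSMUSG00000059436.13, chr12:76937269-76962201, minus strand, 8 exon blocks), the shared dimer partner, showed smaller differences than Myc. In KH cells it stood at 78.7 and 83.5 TPM, 80.1 and 79.4 TPM, and 99.6 and 95.5 TPM at 0, 72 and 144 h. In DNMT3ABKO cells it stood at 74.1 and 75.5, 84.8 and 86.1, and 90.2 and 93.0 TPM. The libraries at 144 h were above all others of their line. Max rose by 0.26 ± 0.06 in KH cells at 144 h (adjusted p = 0.0038) and by 0.29 ± 0.06 in DNMT3ABKO cells (adjusted p = 0.0018). At 72 h it rose in DNMT3ABKO cells, by 0.19 ± 0.06 (adjusted p = 0.019), against -0.02 ± 0.06 in KH cells. The difference between these responses did not pass (0.21 ± 0.08, adjusted p = 0.20). The 72 h call was lost with rescaling by median ratios (adjusted p = 0.41), with only the groups of the contrast (0.16) and without DNMT3ABKO replicate 1 or 2 at 72 h (0.067 and 0.096). The DNMT3ABKO call at 144 h was lost with only the groups of the contrast (0.062). The ratio of summed MYC genes to Max was 2.48 in both lines at 0 h and 2.54 in KH against 1.98 in DNMT3ABKO cells at 144 h. Gm47218, a low transcript at 1.61 to 4.48 TPM, shares 1319 bases with Max on the same strand.

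Mnt (ENSMUSG00000000282.12, chr11:74830920-74845725, plus strand, 6 exon blocks), whose protein is a broadly expressed MAX partner that represses MYC targets, was the most abundant antagonist in every library. Its level in KH cells was 30.7 and 33.6 TPM at 0 h, 44.8 and 41.9 TPM at 72 h and 55.4 and 54.7 TPM at 144 h. DNMT3ABKO libraries were at 28.7 and 31.1, 45.4 and 47.1, and 53.3 and 50.7 TPM. In both lines the time points did not overlap and followed each other upwards. Mnt rose by 0.42 ± 0.07 at 72 h (adjusted p = 0.0012) and by 0.76 ± 0.07 at 144 h (adjusted p = 2.1e-05) in KH cells, and by 0.61 ± 0.07 (adjusted p = 7.5e-05) and 0.78 ± 0.07 (adjusted p = 1.0e-05) in DNMT3ABKO cells. The line differences in these responses were 0.19 (95% interval -0.04 to 0.43) and 0.02 (-0.21 to 0.25).

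Mxd1 (ENSMUSG00000001156.9, chr6:86647042-86669161, minus strand, 7 exon blocks) encodes an antagonist that is typically induced as cells leave the cell cycle and differentiate. It stood at 4.73 and 5.05 TPM, 7.69 and 7.85 TPM, and 8.98 and 9.0 TPM in KH cells, and at 5.80 and 6.45, 9.97 and 9.46, and 13.1 and 13.2 TPM in DNMT3ABKO cells. At each time point both DNMT3ABKO libraries lay above both KH libraries. It rose in KH cells by 0.57 ± 0.08 at 72 h and by 0.76 ± 0.08 at 144 h (adjusted p = 3.8e-04 and 4.6e-05) and by 0.59 ± 0.08 and 0.99 ± 0.08 in DNMT3ABKO cells (adjusted p = 2.2e-04 and 4.7e-06). DNMT3ABKO cells were higher by 0.50 ± 0.08 at 144 h (adjusted p = 0.0017) and by 0.29 ± 0.08 at 72 h (adjusted p = 0.036). The difference at 0 h, 0.27 ± 0.08, did not pass (adjusted p = 0.074). The call between lines at 72 h was lost without any 1 of the 4 libraries, with adjusted p of 0.11 to 0.20, and with a block for the replicate number (0.080).

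Mxd3 (ENSMUSG00000021485.14, chr13:55325168-55329823, minus strand, 3 exon blocks) encodes the MXD protein that is associated with S phase and proliferating cells. In KH libraries it stood at 4.65 and 3.99, 9.53 and 8.13, and 9.71 and 9.23 TPM. In DNMT3ABKO libraries it stood at 6.51 and 5.52, 8.10 and 7.71, and 9.31 and 9.01 TPM. The lines were apart at 0 h and close at 144 h. Mxd3 rose by 0.88 ± 0.11 at 72 h and 0.98 ± 0.11 at 144 h in KH cells (adjusted p = 1.5e-04 and 5.5e-05) and by 0.35 ± 0.11 and 0.54 ± 0.11 in DNMT3ABKO cells (adjusted p = 0.021 and 0.0019). The line differences in these responses, -0.54 ± 0.16 and -0.44 ± 0.16, did not pass (adjusted p = 0.085 and 0.12). They did without DNMT3ABKO replicate 2 at 0 h (-0.64 and -0.54, adjusted p = 0.020 and 0.031). The 72 h rise in DNMT3ABKO cells was lost with rescaling by median ratios (adjusted p = 0.15), with only the groups of the contrast (0.097) and without DNMT3ABKO replicate 2 at 0 h (0.097) or replicate 1 or 2 at 72 h (0.11 and 0.059). The gene overlaps Prelid1, at 107 to 202 TPM, by 105 bases on the opposite strand. Whether reads were counted by strand is not given in the sources used here, so the values of Mxd3 are uncertain.

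Mxd4 (ENSMUSG00000037235.13, chr5:34173883-34187720, minus strand, 6 exon blocks), also an antagonist linked with cell cycle exit, was the one member below its 0 h level in KH cells by the test. It stood at 7.10 and 8.86 TPM at 0 h, 4.84 and 5.42 TPM at 72 h and 5.88 and 5.03 TPM at 144 h in KH cells. Its DNMT3ABKO levels were 8.14 and 10.9, 9.02 and 7.53, and 7.80 and 7.54 TPM. The replicates at 0 h spread more widely than those of later time points. In KH cells it fell by 0.54 ± 0.15 at 72 h (adjusted p = 0.014) and by 0.47 ± 0.15 at 144 h (adjusted p = 0.024). In DNMT3ABKO cells the differences were -0.17 (95% interval -0.51 to 0.16) and -0.27 (-0.60 to 0.07). The line differences in response were 0.37 ± 0.21 and 0.21 ± 0.21 (adjusted p = 0.41 and 0.62). The KH calls rested on single libraries, being lost without replicate 2 at 0 h (adjusted p = 0.10 and 0.16), without replicate 1 at 72 h (0.087) and without replicate 2 at 144 h (0.14). The 144 h difference in DNMT3ABKO cells was called with rescaling (-0.32, adjusted p = 0.044) and without replicate 1 at 0 h (-0.46, adjusted p = 0.026). At 72 h DNMT3ABKO cells were higher than KH cells by 0.59 ± 0.15 (adjusted p = 0.021), a call lost without KH replicate 1 or 2 (0.14 and 0.066) or DNMT3ABKO replicate 1 (0.15).

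Mxi1 (ENSMUSG00000025025.13, chr19:53310506-53375810, plus strand, 11 exon blocks), a further MXD-type antagonist, ranged from 5.94 to 6.99 TPM in KH and from 6.0 to 8.59 TPM in DNMT3ABKO libraries. Mlx (ENSMUSG00000017801.15, chr11:101087277-101092207, plus strand, 8 exon blocks) ranged from 24.5 to 26.7 TPM and from 19.6 to 26.6 TPM. Both ends of the DNMT3ABKO range of Mlx came from the replicates at 0 h. Neither gene passed the test in any of the 11 comparisons. Their responses lay between -0.10 and 0.26, and their 95% intervals between -0.37 and 0.53 for Mxi1 and between -0.23 and 0.33 for Mlx. Without DNMT3ABKO replicate 2 at 0 h, which held the highest of the 0 h values, Mxi1 was called higher in DNMT3ABKO cells at 72 and 144 h (0.30 and 0.45, adjusted p = 0.029 and 0.0035). Mlx was then called higher at both times too (0.28 and 0.28, adjusted p = 0.0095 and 0.0086), and lower than in KH cells at 0 h (-0.34, adjusted p = 0.0095). Mlx shares 385 bases with Psmc3ip on the opposite strand, which stood at 13.4 to 17.2 TPM.

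**Figure D3:**
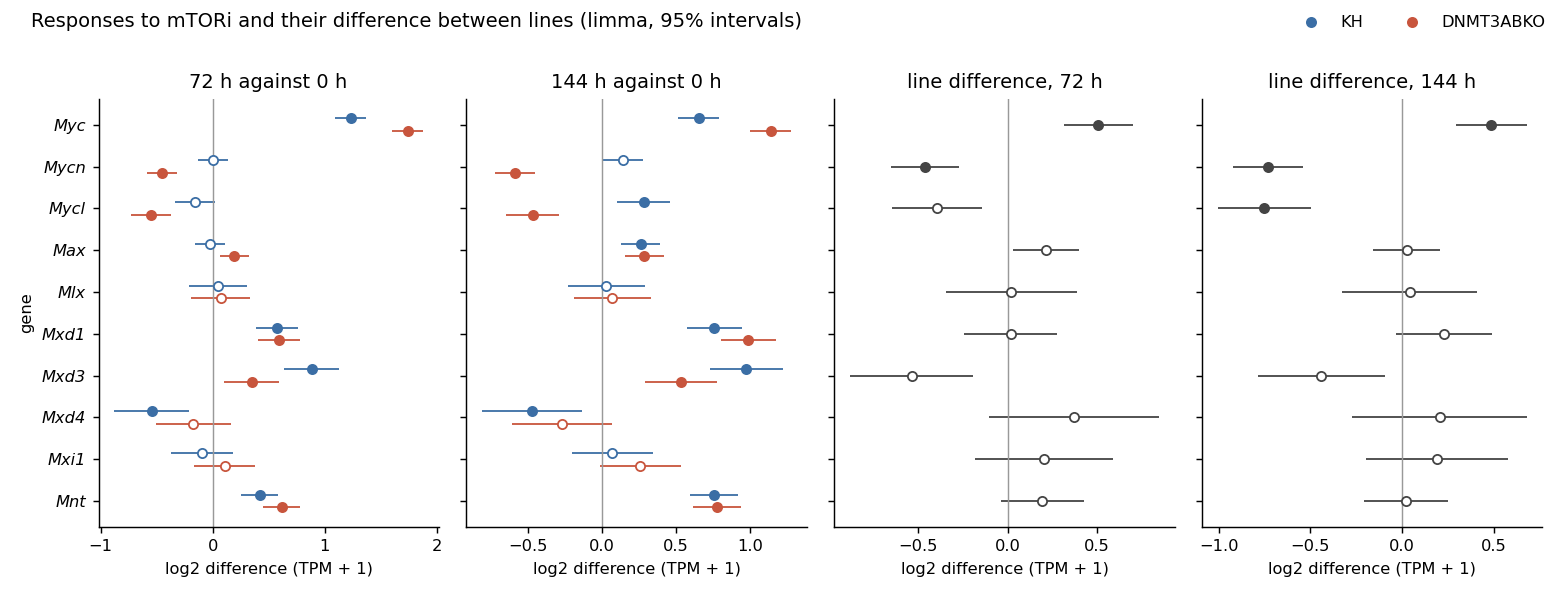
Log2 differences of log2(TPM + 1) (x axis) for each member (y axis) with 95% intervals from limma, for 72 h and 144 h against 0 h in KH (blue) and DNMT3ABKO (red) and for the DNMT3ABKO response minus the KH response (grey). Filled points passed an adjusted p of 0.05 and open points did not. The filled line differences are those of Myc (0.51 and 0.49), Mycn (-0.46 and -0.73) and, at 144 h, Mycl (-0.75).

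Counted together, 4 of the 10 members rose and 1 fell in KH cells at 72 h, where 28.3% of all tested genes rose and 19.5% fell (47.8% either way). At 144 h, 6 rose and 1 fell (27.4% and 23.9% of all genes, 51.3% either way). In DNMT3ABKO cells 5 rose and 2 fell at 72 h (34.3% and 21.6%, 56.0% either way), and again 5 and 2 at 144 h (31.4% and 26.2%, 57.6% either way). The share of members called in either direction was 50% in KH cells at 72 h and 70% in the other responses. With rescaling of each library by its median ratio, the counts at 72 h were 4 higher and 2 lower in KH and 3 and 2 in DNMT3ABKO cells. The share of higher genes among all genes called there went from 59.1% to 46.3% in KH and from 61.3% to 48.5% in DNMT3ABKO cells. This rescaling moved the median log2 difference of all genes by more than 0.1 in the 72 h response of DNMT3ABKO cells, from 0.12 to 0.00. Small differences such as that of Max at 72 h are relative to that shift. Between 72 and 144 h, 3 members rose (Mycl, Max and Mnt) and Myc fell in KH cells, where 7.24% and 15.6% of all genes did so (22.9% either way). Rescaling added Mycn and Mxd1 to the higher ones in KH cells (0.19 and 0.23, adjusted p = 0.049 and 0.024). In DNMT3ABKO cells Mxd1 rose (by 0.40, adjusted p = 0.0054) and Myc fell (8.81% and 18.5%, 27.3% either way). Rescaling there also called Max and Mnt higher (0.17 and 0.24, adjusted p = 0.032 and 0.013). The KH count became 2 without KH replicate 2 at 72 h or replicate 1 at 144 h, which ended the calls of Max and Mnt. The rise of Mxd1 was lost without DNMT3ABKO replicate 2 at 72 h (adjusted p = 0.051).

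Between the lines, 1 member was called at 0 h, Myc, which was lower in DNMT3ABKO cells (4.92% of all genes were called higher, 4.14% lower and 9.06% either way). With rescaling, Mxd1 and Mxd3 were called higher as well (0.32 and 0.45, adjusted p = 0.011 and 0.048). A block for the replicate number in each line also called Mxd3 (0.40, adjusted p = 0.050, just under the threshold). Mxd1 was also called without DNMT3ABKO replicate 1 at 0 h (0.34, adjusted p = 0.046), and Mxd3 and Mlx without replicate 2 (0.50 and -0.34, adjusted p = 0.013 and 0.0095). At 72 h, 2 members were higher in DNMT3ABKO cells (Mxd1 and Mxd4) and 2 lower (Mycn and Mycl), against 9.26% and 10% of all genes (19.3% either way). Mxi1 was also called higher at 72 h with rescaling (0.30, adjusted p = 0.039) and with only the groups of the contrast (0.28, adjusted p = 0.043). Only Mycn and Mycl were called without KH replicate 1 or 2 or DNMT3ABKO replicate 1 at 72 h. At 144 h Mxd1 was higher, and Mycn and Mycl were lower by 0.75 ± 0.06 and 0.80 ± 0.08, against 11% and 15.5% of all genes (26.5% either way). With rescaling, Mxd4 and Mxi1 joined the higher ones at 144 h (0.47 and 0.32, adjusted p = 0.017 and 0.027). The response itself differed between the lines for 2 members at 72 h (Myc and Mycn), where 5.23% of all genes differed (3.38% upwards and 1.86% downwards), and for 3 at 144 h (Myc, Mycn and Mycl), where 8.59% did (4.89% and 3.7%). Without DNMT3ABKO replicate 2 at 0 h the 72 h count was 4, with Mycl (-0.41, adjusted p = 0.040) and Mxd3 added.

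The antagonists summed, Mnt, Mxd1, Mxd3, Mxd4 and Mxi1, came to 53.4 and 58.5, 72.8 and 69.5, and 86.9 and 84.9 TPM in KH libraries at 0, 72 and 144 h. They came to 55.1 and 62.1, 80.3 and 79.1, and 92.1 and 89.0 TPM in DNMT3ABKO libraries. Mnt made up 57.5% to 64.1% of that sum in the KH groups and 51.1% to 58.0% in the DNMT3ABKO groups. Set against it, the summed MYC genes were 3.60 ± 0.11, 3.79 ± 0.05 and 2.89 ± 0.01 times as abundant in KH cells (SD, n = 2). The ratios were 3.18 ± 0.31, 2.92 ± 0.04 and 2.00 ± 0.04 in DNMT3ABKO cells. The ratio was thus lowest at 144 h in both lines. At 0 h, as at 72 and 144 h, each DNMT3ABKO library was below each KH library.

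Partners outside the 10 members were examined next. Mga, a large MAX partner that joins a polycomb-like repressor complex and holds back germline genes in ES cells, stood at 39.0 and 50.1, 53.3 and 54.1, and 71.3 and 55.2 TPM in KH cells. For DNMT3ABKO cells the values were 36.8 and 52.9, 73.8 and 66.2, and 47.2 and 51.8 TPM. Its replicates spread widely at 0 h in both lines. It rose in KH cells at 144 h (0.50 ± 0.18, adjusted p = 0.039), a call lost without KH replicate 1 at 0 h or at 144 h (adjusted p = 0.24 and 0.25). It rose in DNMT3ABKO cells at 72 h (0.65 ± 0.18, adjusted p = 0.011), lost without replicate 1 at 0 h or at 72 h (0.067 and 0.068).

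Mlxip and Mlxipl encode the glucose-responsive partners of MLX. Mlxip ranged from 11.3 to 14.9 TPM over all 12 libraries and passed no comparison. Mlxipl stood at 1.40 and 1.49, 3.46 and 2.93, and 2.96 and 2.66 TPM in KH cells, and at 1.93 and 2.51, 7.82 and 7.13, and 4.61 and 5.67 TPM in DNMT3ABKO cells. DNMT3ABKO libraries were the higher at every time point, most at 72 h. Mlxipl rose by 0.78 ± 0.13 and 0.64 ± 0.13 in KH cells at 72 and 144 h (adjusted p = 9.6e-04 and 0.0024) and by 1.40 ± 0.13 and 0.93 ± 0.13 in DNMT3ABKO cells (adjusted p = 1.6e-05 and 1.8e-04). The line difference at 72 h, 0.62 ± 0.18, did not pass (adjusted p = 0.092). It did with rescaling by median ratios (0.60, adjusted p = 0.049) and without DNMT3ABKO replicate 2 at 0 h (0.76, adjusted p = 0.022).

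Txnip, an inhibitor of thioredoxin and of glucose uptake, and Arrdc4, its relative, are the classic targets of MLX complexes. Txnip stood at 82.3 and 92.2 TPM, 333 and 325 TPM, and 364 and 375 TPM in KH cells. DNMT3ABKO libraries stood at 83.8 and 92.2, 181 and 184, and 305 and 314 TPM. The lines overlapped at 0 h, were far apart at 72 h and came closer at 144 h. It rose 3.77-fold in KH and 2.08-fold in DNMT3ABKO cells at 72 h, by 1.91 ± 0.07 and 1.05 ± 0.07 (adjusted p = 1.5e-07 and 2.0e-06). At 144 h it was 4.24-fold and 3.52-fold above 0 h, by 2.07 ± 0.07 and 1.81 ± 0.07 (adjusted p = 1.8e-08 and 2.1e-08). The response at 72 h was smaller in DNMT3ABKO cells by 0.86 ± 0.10 (adjusted p = 0.0013), and at 144 h the difference of -0.27 ± 0.10 did not pass (adjusted p = 0.14). It did with rescaling (-0.27, adjusted p = 0.034) and without DNMT3ABKO replicate 1 at 0 h (-0.33, adjusted p = 0.040).

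Arrdc4 stood at 22.6 and 23.0, 26.1 and 26.9, and 31.8 and 34.6 TPM in KH cells and at 34.1 and 29.4, 26.4 and 26.5, and 39.2 and 38.9 TPM in DNMT3ABKO cells. It was higher in DNMT3ABKO cells at 0 h (0.46 ± 0.08, adjusted p = 0.0060) and met the KH level at 72 h. At 144 h it was above 0 h in KH cells (0.52 ± 0.08, adjusted p = 4.0e-04) and in DNMT3ABKO cells (0.29 ± 0.08, adjusted p = 0.0096), while at 72 h it fell in DNMT3ABKO cells (-0.25 ± 0.08, adjusted p = 0.023). The 72 h fall was lost without DNMT3ABKO replicate 1 at 0 h (adjusted p = 0.11) or either library at 72 h (0.092 and 0.083). Rescaling by median ratios ended the DNMT3ABKO call at 144 h (0.23, adjusted p = 0.067). Every Arrdc4 call that involves the DNMT3ABKO 0 h libraries was lost with only the groups of the contrast in the model. The difference in the 72 h response, -0.46 ± 0.11, just passed (adjusted p = 0.047) and was lost under 12 of the alternatives tried, with adjusted p of 0.055 to 0.17.

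Pvt1, a long non-coding RNA gene that neighbours Myc downstream on chromosome 15, stood at 15.1 and 14.4, 20.1 and 23.7, and 10.6 and 11.5 TPM in KH cells. The DNMT3ABKO values were 13.8 and 14.6, 21.2 and 19.6, and 7.61 and 10.2 TPM. Like Myc it was highest at 72 h in both lines, but at 144 h it was below its level at 0 h. It rose by 0.53 ± 0.13 and 0.49 ± 0.13 at 72 h (adjusted p = 0.0063 and 0.0076). At 144 h it was lower by 0.39 ± 0.13 in KH cells (adjusted p = 0.026) and by 0.63 ± 0.13 in DNMT3ABKO cells (adjusted p = 0.0017). The KH call at 144 h was lost without any 1 of its 4 libraries (adjusted p = 0.055 to 0.13). The 72 h calls were lost without replicate 2 at 72 h in KH cells (0.062) and without replicate 1 at 72 h in DNMT3ABKO cells (0.055).

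**Figure D4:**
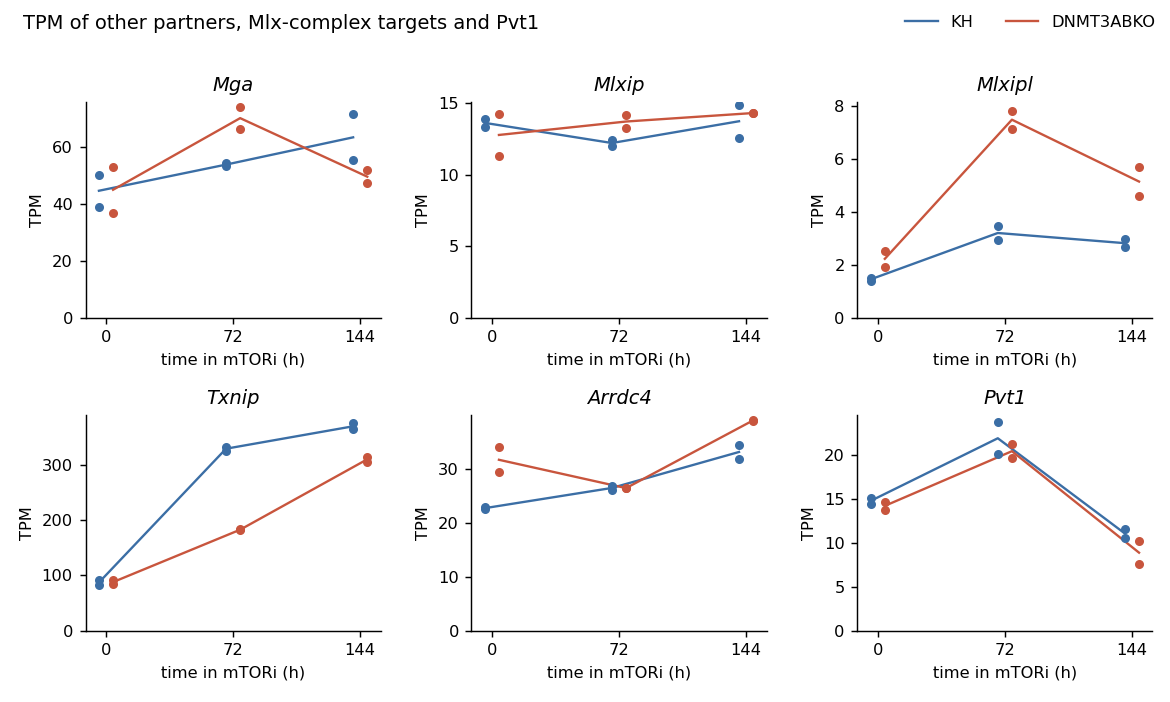
TPM (y axis, from 0) of Mga, Mlxip, Mlxipl, Txnip, Arrdc4 and Pvt1 against hours in mTORi (x axis), with each library as a point and lines through the means of 2 replicates, KH in blue and DNMT3ABKO in red. At 72 h Txnip stands at 329 TPM in KH, against 183 TPM in DNMT3ABKO, while Mlxipl stands at 3.20 and 7.47 TPM.

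A list of 61 genes that MYC is known to activate was chosen with earlier results of these data known. Among its genes, many of them for ribosome assembly, nucleotide synthesis and replication, more fell than rose in each response. KH cells had 7 genes higher and 29 lower at 72 h and 5 higher and 30 lower at 144 h. In DNMT3ABKO cells 14 were higher and 21 lower at 72 h, and 11 higher and 24 lower at 144 h. As shares, 47.5% of the list fell by 72 h and 49.2% by 144 h in KH cells, against 34.4% and 39.3% in DNMT3ABKO cells, where 19.5%, 23.9%, 21.6% and 26.2% of all tested genes fell. By the test of the difference in response, 2 of the 61 genes (3.28%) differed between the lines at 72 h and 3 (4.92%) at 144 h. These shares were below the 5.23% and 8.59% of all tested genes that did so. For KH cells the median log2 difference of the list was -0.20 at 72 h and -0.17 at 144 h, and for DNMT3ABKO cells -0.08 and -0.11, beside 0.08, 0.05, 0.12 and 0.05 for all genes. Rescaling gave 10 higher and 30 lower in DNMT3ABKO cells at 72 h, and fits with only the groups of the contrast called 21 and 15 list genes in DNMT3ABKO cells in place of 35 and 35. Without replicate 2 at 72 h the KH count of 36 was 23, and without replicate 1 at 144 h the DNMT3ABKO count of 35 was 23.

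Within the list, the lowest called genes in KH cells at 144 h were Map3k6 (-0.71 ± 0.12), Rabepk (-0.65 ± 0.10) and Dusp2 (-0.61 ± 0.13), a kinase, a Rab9 effector and a phosphatase, all under 14 TPM at 0 h. In DNMT3ABKO cells they were Ung, the uracil-DNA glycosylase, which went from 130.5 ± 1.3 to 74.9 ± 0.9 TPM (-0.79 ± 0.06), Rabepk (-0.57 ± 0.10) and Cad, the enzyme that begins pyrimidine synthesis, which went from 84.5 ± 1.0 to 58.5 ± 2.5 TPM (-0.52 ± 0.07). Hk2, a hexokinase of glycolysis, rose in both lines, by 0.47 ± 0.06 in KH cells, where it reached 169 ± 9.8 TPM after 121 ± 0.3 TPM, and by 0.52 ± 0.06 in DNMT3ABKO cells, where it reached 177 ± 0.3 TPM after 123 ± 2.6 TPM. The other leading genes upwards were Plk4 (0.47 ± 0.14) and Exosc5 (0.33 ± 0.08) in KH cells and Sord (0.94 ± 0.08) and Ndufaf4 (0.57 ± 0.14) in DNMT3ABKO cells, a kinase of centriole duplication, an exosome subunit, sorbitol dehydrogenase and an assembly factor of respiratory complex I.

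**Figure D5:**
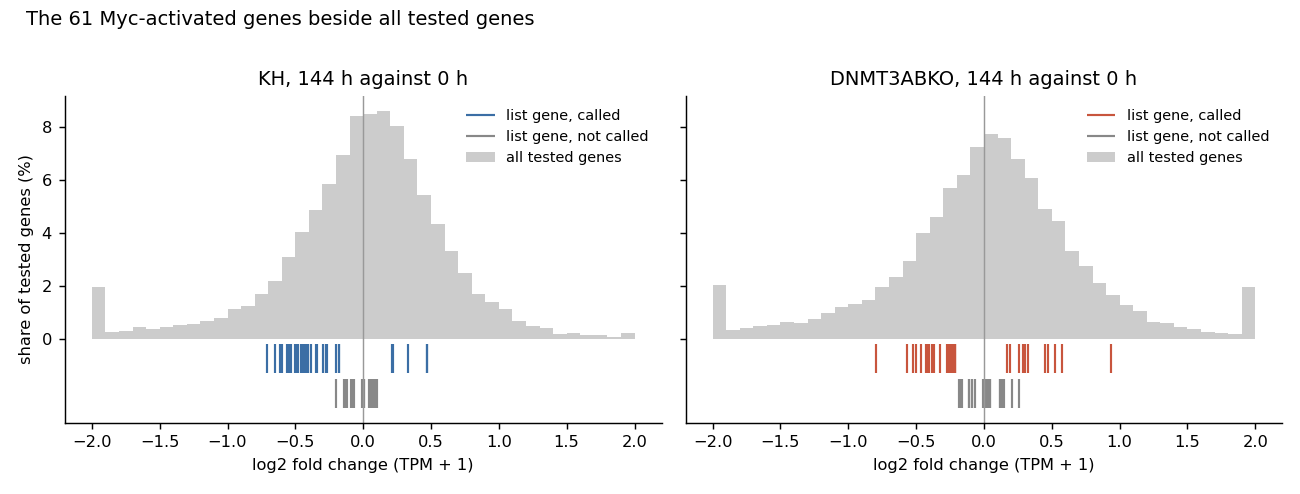
Log2 fold change at 144 h against 0 h (x axis) for all 15727 tested genes as a histogram (y axis, percent of genes, with the end bars holding all values beyond ±2) and for the 61 Myc-activated genes as ticks below it, coloured where called and grey where not. The coloured ticks lie mostly left of 0, with 30 lower and 5 higher in KH cells and 24 lower and 11 higher in DNMT3ABKO cells. The list was chosen with earlier results of these data known.

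Of 8 genes that MYC is known to repress, 3 rose and 3 fell in KH cells at 72 h and 4 rose and 3 fell at 144 h. In DNMT3ABKO cells 2 rose and 3 fell at 72 h, and 4 rose and 3 fell at 144 h. Over the 8 genes the median log2 difference was 0.07 at 72 h and 0.14 at 144 h for KH cells and 0.03 and 0.13 for DNMT3ABKO cells, beside 0.08, 0.05, 0.12 and 0.05 for all genes. At 72 and 144 h, 75% and 87.5% of the list were called in either direction in KH and 62.5% and 87.5% in DNMT3ABKO cells, where 47.8%, 51.3%, 56.0% and 57.6% of all genes were called. At 144 h Ndrg2, Gadd45a and Cdkn1b, the CDK inhibitor p27, rose by 1.10 ± 0.14, 0.69 ± 0.07 and 0.56 ± 0.08 in KH cells and by 0.62 ± 0.14, 0.77 ± 0.07 and 0.44 ± 0.08 in DNMT3ABKO cells. Thbs1, a secreted matrix protein, dropped to 65.1 ± 0.7 TPM after 687 ± 63 TPM in KH cells, and Cdkn1a and Cdkn2b, CDK inhibitors that are high in arrested fibroblasts, went from 94.5 ± 5.7 to 24.6 ± 2.1 TPM and from 12.8 ± 1.9 to 2.14 ± 0.04 TPM. In DNMT3ABKO cells the log2 differences of these 3 were -3.42 ± 0.11, -1.82 ± 0.08 and -2.16 ± 0.11. Over the same interval the 16 fibroblast markers summed to 2465 to 2711 TPM at 0 h and 547.5 to 637.9 TPM at 144 h in KH cells, and their part in these falls was not tested.

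Among 14 coactivator genes of MYC, which open chromatin or release paused polymerase, 5 rose and 2 fell at 144 h in both KH and DNMT3ABKO cells, and at 72 h 2 rose and 2 fell in KH and 4 rose and 4 fell in DNMT3ABKO cells. The share called was 28.6% at 72 h and 50% at 144 h in KH and 57.1% and 50% in DNMT3ABKO cells, against 47.8%, 51.3%, 56.0% and 57.6% of all genes. No share stood clearly above that of all genes. Trrap, the scaffold that binds MYC, rose by 0.62 ± 0.09 in KH cells at 144 h, to 51.2 ± 5.9 TPM after 32.8 ± 0.3 TPM, and by 0.38 ± 0.09 in DNMT3ABKO cells, to 47.9 ± 2.5 TPM after 36.6 ± 2.4 TPM. Wdr5, which anchors MYC on chromatin, rose by 0.35 ± 0.07 in each line. The ATPases Ruvbl1 and Ruvbl2 fell, by 0.40 ± 0.06 and 0.28 ± 0.06 in KH cells and by 0.44 ± 0.06 and 0.51 ± 0.06 in DNMT3ABKO cells. The remaining leading genes were Ep400 (0.42 ± 0.11) in KH cells and Ccnt1 (0.34 ± 0.12) in DNMT3ABKO cells. The median log2 difference at 144 h was 0.12 and 0.07, beside 0.05 and 0.05 for all genes. The DNMT3ABKO count of 8 at 72 h was 5 without replicate 1 or 2 at 72 h. With rescaling the counts were 1 higher and 4 lower in KH cells at 72 h, and 2 and 4 at 72 h and 4 and 4 at 144 h in DNMT3ABKO cells.

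Among 11 genes of the SIN3 and NCOR corepressors that MXD proteins and MNT recruit, 3 rose and 1 fell in KH cells at 72 h, 4 rose and 2 fell at 144 h, and 5 rose and 3 fell in DNMT3ABKO cells at each time. As a share, 36.4% and 54.5% of the list were called in KH and 72.7% at both times in DNMT3ABKO cells, beside 47.8%, 51.3%, 56.0% and 57.6% of all genes. Sin3a, the scaffold itself, rose by 0.58 ± 0.11 in KH and 0.70 ± 0.11 in DNMT3ABKO cells at 144 h, as did Arid4b (0.87 ± 0.08 and 0.91 ± 0.08) and Ncor1 (0.51 ± 0.11 and 0.71 ± 0.11). The histone-binding Rbbp4 fell by 0.32 ± 0.07 and 0.27 ± 0.07, Rbbp7 fell by 0.26 ± 0.10 in KH cells, and Sap18 and the deacetylase Hdac1 fell by 0.61 ± 0.14 and 0.23 ± 0.07 in DNMT3ABKO cells. The median log2 difference at 144 h was 0.04 and 0.03, where that of all genes was 0.05 in each line. Rescaling turned the balance at 72 h to 2 higher and 4 lower in KH and 3 and 5 in DNMT3ABKO cells, and gave 4 and 4, and 5 and 5, at 144 h. The KH count at 72 h was 1 without replicate 1 or 2 at 72 h.

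Of 15 genes that set the stability of MYC proteins, 5 rose and 4 fell in KH cells at 72 h and 7 rose and 3 fell at 144 h, and in DNMT3ABKO cells 7 rose and 3 fell at 72 h and 7 rose and 2 fell at 144 h. The called share was 60% and 66.7% in KH and 66.7% and 60% in DNMT3ABKO cells, where 47.8%, 51.3%, 56.0% and 57.6% of all genes were called. The kinase genes Pim1 and Pim3 rose most at 144 h, by 1.11 ± 0.08 and 0.92 ± 0.07 in KH cells and by 0.91 ± 0.08 and 0.96 ± 0.07 in DNMT3ABKO cells. Skp2, a ubiquitin ligase subunit for MYC, fell by 0.53 ± 0.10 and 0.79 ± 0.10. Other leading genes were the ligase Huwe1 (0.69 ± 0.14), the phosphatase inhibitor Set (-0.44 ± 0.08) and Aurka (-0.16 ± 0.06) in KH cells, and Cip2a (0.70 ± 0.14) and the kinase Gsk3b (-0.56 ± 0.13) in DNMT3ABKO cells. The median log2 difference at 144 h was 0.17 and 0.19, beside 0.05 and 0.05 for all genes. With rescaling, 3 were higher and 6 lower in KH and 6 and 6 in DNMT3ABKO cells at 72 h, and 7 and 5, and 7 and 4, at 144 h. At 72 h the KH count of 9 became 4 without replicate 1 or 2 at 72 h and 5 with a block for the replicate number, and at 144 h the count of 10 became 5 without replicate 1 at 144 h and 6 without replicate 2 at 144 h or replicate 1 at 0 h.

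Finally, genes whose levels followed those of the MYC genes over the 12 libraries were found by Pearson correlation of log2(TPM + 1), as a description of libraries that share time points and lines. The genes most like Myc were Nfkbid (r = 0.992), Poldip2 (0.988) and Klf15 (0.985). Nfkbid, an IκB-family regulator, had means of 6.01, 14.99 and 10.4 TPM in KH cells and 4.29, 15.7 and 10.8 TPM in DNMT3ABKO cells at 0, 72 and 144 h. Patz1 (0.988), Triobp (0.986) and Psme1 (0.974) were most like Mycn. Patz1, a zinc-finger transcription factor, had means of 73.4, 74.3 and 78.9 TPM in KH cells and 74.2, 54.6 and 52.0 TPM in DNMT3ABKO cells. Agpat4 (0.960), Ank3 (0.955) and Serinc5 (0.952) were most like Mycl, with Agpat4, an enzyme of phospholipid synthesis, at 16.01, 14.3 and 18.1 TPM and at 16.1, 10.4 and 11.6 TPM.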

How the data were processed

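RNA was depleted of ribosomal RNA and ERCC spike-in RNA was added. Per the submitters' processing notes, cutadapt 2.4, STAR 2.7.3a and StringTie 2.0 were used with mm10. The deposited values are TPM per gene, made by the authors with StringTie, 1 library per file, each summing to 1000000. Spike-in rows were not among them, and levels are relative within a library. Sequencing depth cannot be read from TPM, and counting error is therefore not given. Between 15178 and 15811 genes per library reached 1 TPM.

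Values were analysed as log2(TPM + 1) for 15727 genes averaging 1 TPM or more, using limma 3.58.1 in R 4.3.3 with a mean-variance trend, a coefficient for each of 6 groups and no covariate. In all, 11 contrasts were fitted across all genes: each pair of times within a line, the lines at each time, and the difference between the lines' 72 h and 144 h responses. Calls were made at an adjusted p (Benjamini-Hochberg) below 0.05. Fold changes on this scale understate changes of low genes. The count-based test of the study was not used, since TPM are not counts. The smallest p of an exact two-sided permutation test on 2 and 2 libraries is 0.333, which is why the spread was shared over groups. The labels do not say whether replicates were separate cultures. The methods speak of independent repeats, with the time points of a replicate handled side by side. The p-values measure the spread between these libraries. At most 70 tested genes had the same value in both replicates of a group. The limma script was tested on simulated data.

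The members and gene lists were chosen with earlier results of these data known, although the members are found by symbol. Named genes were the 10 members, Mga, Mlxip, Mlxipl, Txnip, Arrdc4 and Pvt1, genes overlapping a member, at most the 3 highest and 3 lowest called genes per list and line at 144 h, and the 3 genes most correlated with each MYC gene. Coordinates are those of the files, counted from 1, and exon blocks are from GENCODE M21. Alternatives tried were leaving out each library, median-ratio rescaling, fits holding only the compared groups and a block for the replicate number in each line. A pseudocount of 0.1 TPM and all 37364 genes with no filter were also tried. Chosen after seeing the data were 1 block shared by both lines and a crossed pairing. Tables and figures were made with matplotlib 3.10.9, NumPy 2.4.6, SciPy 1.17.1 and pandas 2.3.3 under Python 3.11.15.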

Additional observations from a re-analysis of the deposited data

Results flagged for a closer look

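The following results differed between the 2 lines by a test of the difference in response itself (the DNMT3ABKO response minus the KH response, limma). For Myc the difference was 0.51 at 72 h and 0.49 at 144 h. For Mycn it was -0.46 at 72 h and -0.73 at 144 h. For Mycl it was -0.75 at 144 h. For the MLX-complex targets it was -0.86 for Txnip and -0.46 for Arrdc4, both at 72 h. Their standard errors, adjusted p and the libraries on which each call rests are given with the genes above. No group held enough libraries to look for 1 that stands apart within it.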

How the results depend on the processing

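No member changed direction under any alternative in a comparison where it was called. Over the 10 members and 11 comparisons, a pseudocount of 0.1 TPM kept 109 of 110 calls or non-calls, no filter on low values kept 108, the replicate block 108, only the groups in the contrast 101 and median-ratio scaling 97, and leaving out a library kept 481, lost 28 calls and gained 11.

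Between 72 and 144 h in KH cells, median-ratio scaling called 5 members higher and 1 lower, against 3 and 1 in the report. The count of members called between 72 and 144 h in DNMT3ABKO cells was 4 with median-ratio scaling (2 in the report). Between the lines it was 2 with the pseudocount of 0.1 TPM, 3 with median-ratio scaling and 0 in the limma fit of the compared groups (1, Myc, at an unadjusted p under 0.05) at 0 h (1 in the report), and 5 with median-ratio scaling and 5 in the fit of the compared groups at 144 h (3 in the report). For the difference in the 72 h response it was 1 in the fit of the compared groups (2 in the report). Between the lines at 72 h, median-ratio scaling and the fit of the compared groups each called 3 members higher and 2 lower, against 2 and 2 in the report. For DNMT3ABKO at 72 and 144 h, only the groups in the contrast gave 3 and 4 coactivators, 3 and 5 corepressors and 21 and 15 activated genes, and 4 stability genes at 72 h. Those fits hold fewer libraries, and the 0 h DNMT3ABKO replicates spread more widely (SD 0.27 on the log2 scale, against 0.13 to 0.18). Between 72 and 144 h such fits called 8 activated genes higher and 6 lower in KH cells, against 2 and 3 in the report. In DNMT3ABKO cells they called 8 and 10, against 3 and 6. The cause of these differences was not tested.

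Deviations of same-numbered replicates correlated by -0.10 to 0.10 between time points of a line, so no pairing showed there. Between the lines they correlated by 0.34 at 0 h, by 0.13 between KH at 0 h and DNMT3ABKO at 144 h, and by -0.06 to 0.08 otherwise. With the replicate block in each line, 2 members were called between the lines at 0 h, Mxd3 being added (1 without the block), Mxd1 was lost between the lines at 72 h, and 5 stability genes were called in KH cells at 72 h (9 without it). With 1 replicate block shared by both lines, chosen after seeing the data, Myc (adjusted p = 0.0025) and Mxd3 (0.026) were called at 0 h, which makes 2 members. The same block on the 0 h libraries alone called 0 members in limma (2 at an unadjusted p under 0.05, Mxd3 and Myc), with Myc at -0.45 (adjusted p = 0.056), and 638 genes in place of 1425. The crossed pairing, chosen after seeing the data, called 5 members and 7518 genes in DNMT3ABKO cells at 72 h.

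Leaving out each library in turn gave 2 to 4 members between 72 and 144 h in KH and 1 to 2 in DNMT3ABKO cells, 1 to 3 between the lines at 0 h, 2 to 3 at 72 h and 1 to 4 for the difference in the 72 h response. It gave 5 to 9 coactivators in DNMT3ABKO cells at 72 h, 1 to 4 corepressors in KH cells at 72 h, 4 to 8 and 5 to 8 stability genes in KH cells at 72 and 144 h, and 23 to 30 activated genes in KH cells at 72 h and 23 to 41 in DNMT3ABKO cells at 144 h. A lone library was assumed to vary like the other groups. Since depth is unknown, small differences of genes under 10 TPM, such as Mxd3, Mxd4 and Mxi1, have no counting error beside them.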
